A study of Mus musculus with 4 samples.

Results

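Keratins, desmosome genes and genes of squamous epithelium were followed in mouse colon with and without Esr2, the gene of estrogen receptor β. They were taken by symbol as every numbered keratin (Krt), desmoglein (Dsg), desmocollin (Dsc), plakophilin (Pkp) and small proline-rich protein (Sprr) gene, together with Trp63, Dsp, Jup, Ivl, Sfn and Perp. This gave 86 genes of 46095 symbols in the deposited table. Of them 50 were keratins, 15 desmosome genes and 21 squamous genes. The libraries were made from colon of C57BL/6 mice at postnatal day 21, 2 from wild-type mice (WT 1 and WT 2) and 2 from Esr2-/- mice (Esr2-KO 1 and Esr2-KO 2, the knockouts). They were prepared from RNA of colon tissue, a mix of cell types, so that fewer cells of a type and less RNA per cell cannot be told apart. The labels do not state the deleted part of Esr2, the segment of colon taken, or whether the libraries of a genotype came from separate animals.

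Keratins are the intermediate filament proteins of epithelial cells and assemble as pairs of a type I and a type II chain. Single-layered epithelia such as the lining of the colon use the simple keratins, whereas skin, the anal canal and other stratified epithelia use a different set. Desmosomes couple these filaments from cell to cell. Desmosomal cadherins (desmogleins and desmocollins) span the gap, plakoglobin (Jup) and plakophilins bind their tails, and desmoplakin (Dsp) ties the plaque to keratin. Squamous cells add a cornified envelope, built from involucrin (Ivl) and Sprr proteins, under control of the transcription factor p63 (Trp63).

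Sequences are shown for the Sprr genes because they bear on how the counts can be read. The Sprr2a1, Sprr2a2 and Sprr2a3 rows come from 3 copies on chromosome 3 (GRCm38, plus strand) whose coding sequences have 249 bases each in GENCODE M21, stop codon not included. They are printed 5′ to 3′, and capitals mark the bases at which a copy departs from Sprr2a1, of which there are 0 in Sprr2a2 and 3 in Sprr2a3 (98.8% identity).
Sprr2a1, chr3:92219092-92219340: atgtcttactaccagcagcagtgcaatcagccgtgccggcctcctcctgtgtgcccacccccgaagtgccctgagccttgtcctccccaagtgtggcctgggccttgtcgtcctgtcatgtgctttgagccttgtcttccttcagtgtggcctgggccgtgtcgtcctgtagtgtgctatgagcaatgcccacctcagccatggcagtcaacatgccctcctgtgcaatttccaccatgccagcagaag
Sprr2a2, chr3:92253905-92254153: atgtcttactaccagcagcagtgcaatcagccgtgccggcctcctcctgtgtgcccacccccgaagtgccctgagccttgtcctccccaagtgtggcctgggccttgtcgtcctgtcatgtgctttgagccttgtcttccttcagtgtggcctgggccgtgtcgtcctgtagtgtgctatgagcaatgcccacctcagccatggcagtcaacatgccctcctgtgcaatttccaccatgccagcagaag
Sprr2a3, chr3:92288588-92288836: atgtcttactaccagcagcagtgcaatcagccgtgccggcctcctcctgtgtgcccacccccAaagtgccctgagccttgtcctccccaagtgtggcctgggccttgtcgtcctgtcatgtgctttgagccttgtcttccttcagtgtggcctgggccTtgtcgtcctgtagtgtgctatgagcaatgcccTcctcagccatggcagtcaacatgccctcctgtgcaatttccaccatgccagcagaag
Over the longest coding transcript, 96.3% of the windows of 50 bases in Sprr2a1, 96.5% in Sprr2a2 and 61.1% in Sprr2a3 also occurred in transcripts of another gene. Reads from these windows have no unique origin, so the 3 rows are uncertain one by one and were also read as a sum. Sprr1a, by contrast, shared 0% of its windows.

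The upstream sequence of Sprr1a is shown because Sprr1a had the larger difference of the 2 members that passed the test. The 250 bases before its start site in RefSeq (GRCm38.p6, chr3:92485882-92486131, minus strand) are printed 5′ to 3′. Capitals mark matches to TGANTCA, an AP-1-like motif in which N stands for any base.
Sprr1a upstream: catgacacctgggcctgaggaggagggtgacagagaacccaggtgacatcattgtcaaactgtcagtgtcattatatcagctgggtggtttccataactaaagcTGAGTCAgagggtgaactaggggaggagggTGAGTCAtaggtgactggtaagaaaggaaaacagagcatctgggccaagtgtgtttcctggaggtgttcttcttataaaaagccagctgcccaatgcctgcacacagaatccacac
The 2 matches begin 146 and 116 bases before the start site. Searched on both strands, TGANTCA occurred in 12 of 56 such windows of 250 bases of 54 members with an entry (21.4%) and in 6.75% of 32851 windows of all genes. The other matching members were Ivl, Krt13 and further Sprr genes, none of which had enough counts to be tested. The Sprr genes are of 1 family and lie near each other on chromosome 3, so their windows are not independent. The full palindromic estrogen response element was found in 0 of the 56 windows and in 0.0639% of all. These are letter matches in a window and no measurement of binding.

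Library totals ran from 30826790 to 33709643 counts. Levels are given as CPM, counts scaled to a common library size after TMM (trimmed mean of M values) normalization, and a count of 3, taken as the floor under a value of 0, was worth 0.0826 to 0.114 CPM. The members took 1.34%, 1.18%, 1.25% and 1.01% of the counts of WT 1, WT 2, Esr2-KO 1 and Esr2-KO 2. Esr2 itself was counted 21 and 13 times in WT, and 6 and 16 times in the knockouts (log2 fold change -0.32 ± 0.77 (SE), edgeR adjusted p = 0.854), too few to detect a difference, so the counts do not check the genotype labels. Esr2-KO 2 stood apart, with 21.3% of its counts in a list of 27 pancreatic acinar genes (95% Wilson interval 21.29 to 21.32), where the other libraries had 0.245%, 0.277% and 0.378% (intervals within 0.244 to 0.380, counting error only). The 6 genes of distal gut position, Hoxa13, Hoxb13 and Hoxd10 to Hoxd13, had positive log2 fold changes, with Hoxb13 and Hoxd12 past the threshold. The 6 of proximal position had negative ones, with Hoxb7, Hoxb8 and Hoxb9 past it. The calls of Hoxb7 and Hoxb8 ended with limma-voom (0.136 and 0.138), that of Hoxb7 without WT 2 (0.0842), and that of Hoxb9 with a block on replicate number (0.0731) and without WT 1 (0.154), WT 2 (0.186) or Esr2-KO 2 (0.0812). Hoxb13 stood at 72.8 and 153 CPM in WT against 616 and 676 CPM in the knockouts. Segment of colon and genotype cannot be told apart in these libraries, for any result below.

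Counted over the whole set, 33 of 86 members had enough counts to be tested, 30 had no count in any library, and the other 23 had at most 22 counts over the 4 libraries. Since a low gene can enter the test through the group in which it is higher, counts over the 33 are a description. The threshold was an adjusted p under 0.05 in edgeR's quasi-likelihood test, Benjamini-Hochberg adjusted over 17169 genes, with n = 2 per group, and all log2 fold changes are knockout over WT with their SE. Of the 33, Pkp1 rose and Sprr1a fell (6.06%), where 1.30% of all 17169 genes tested rose and 1.39% fell (2.69% in all). The groups did not overlap in 24, of which 10 (30.3%) were higher and 14 (42.4%) lower in Esr2-KO, where 27.0% of all genes tested were higher without overlap and 27.7% lower. The median log2 fold change of the 33 was -0.13, with 20 negative, against -0.003 over all genes tested. By class it was -0.08 for simple keratins, -0.42 for stratified keratins, 0.30 for hair and other keratins, -0.43 for cadherins, 0.15 for plaque proteins and -0.30 for squamous genes. With library totals in place of TMM the median of all genes moved to -0.17, and the split of all calls went from 223 higher and 239 lower to 208 and 487. Krt7, Krt8, Krt10, Krt12, Krt80, Dsg2 and Dsp each have an exon under a gene of the opposite strand, and without a stated use of strand the reads of the pair cannot be told apart.

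**Figure D1:**
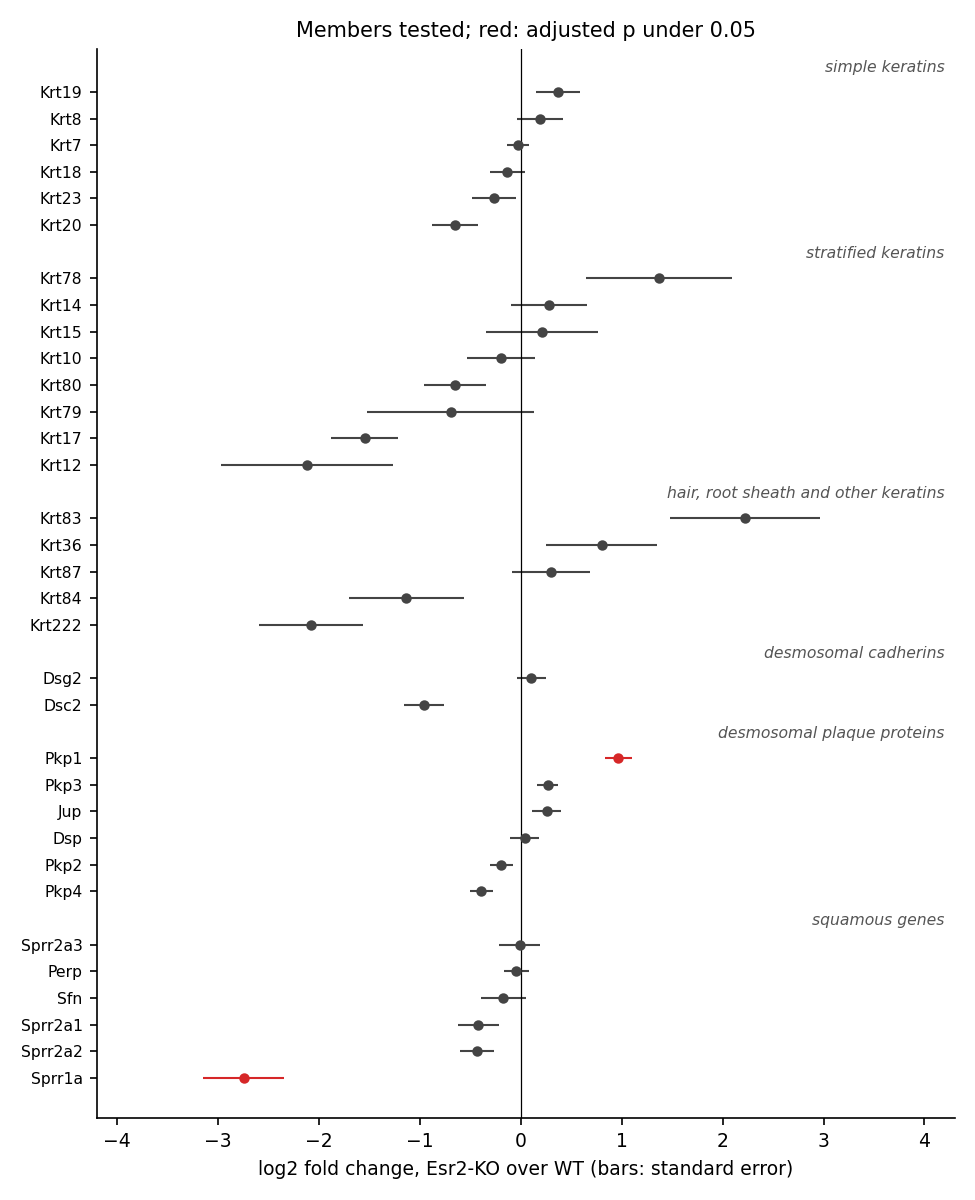
Log2 fold change of Esr2-KO over WT for the 33 members tested, with the standard error from edgeR, by class. Pkp1 (0.97) and Sprr1a (-2.75), in red, are past the threshold, while Krt83 (2.22) and Krt12 (-2.12) are not and have wide bars.

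Simple keratins made up nearly all keratin RNA. Per length of the longest coding transcript, Krt8, the type II chain of simple epithelia, was the most abundant member in every library. The type I chain Krt19 followed. The 6 simple keratins (Krt7, Krt8, Krt18, Krt19, Krt20 and Krt23) held 99.64% and 99.59% of keratin counts in the WT libraries and 99.76% in each Esr2-KO library. Wilson intervals lay between 99.57% and 99.78% and cover counting error only, not the spread between libraries. Summed over genes and divided by transcript length, type I simple keratins stood at 2044, 1683, 1961 and 1955 CPM per kb and type II at 1922, 1728, 2058 and 2093 CPM per kb (WT 1, WT 2, Esr2-KO 1 and Esr2-KO 2). The ratio of type I to type II RNA was thus close to parity in each library, at 1.06, 0.974, 0.953 and 0.934. Lengths are those of the longest coding transcript in GENCODE M21, and another isoform would shift them. The order of members holds for these lengths only. Sprr2a3, for example, has a coding transcript of 682 bases beside the 2880 bases used, which would raise its level per length. Of the 50-base windows of Krt8, 26.9% also occur in the pseudogene Krt8-ps, so that part of its reads could have been assigned there.

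**Figure D2:**
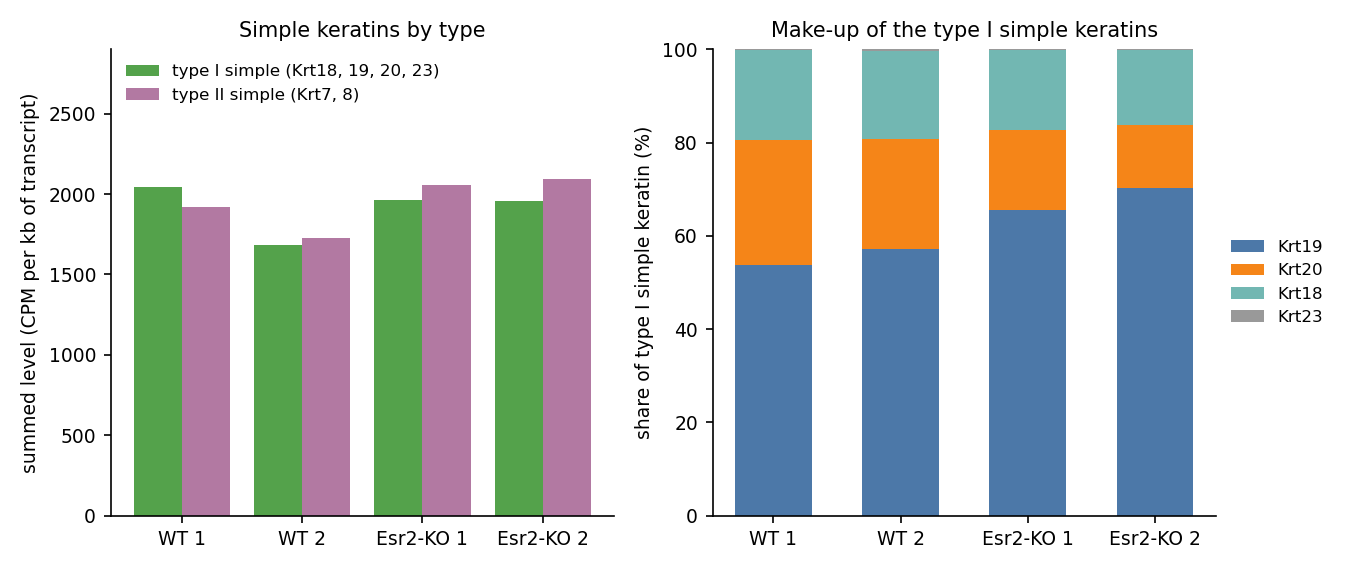
Left, summed level of type I and type II simple keratins in each library (CPM per kb of transcript). Right, share of each gene in the type I sum (%). The Krt20 share runs from 26.8% in WT 1 to 13.6% in Esr2-KO 2, and the Krt19 share from 53.8% to 70.2%.

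Within the type I chains the make-up differed between the groups. Krt20, the keratin of differentiated surface cells, gave 26.8% and 23.6% of the type I level per length in WT and 17.1% and 13.6% in Esr2-KO. Krt19 gave 53.8% and 57.2% in WT and 65.6% and 70.2% in Esr2-KO. The groups did not overlap in either share, and the per-length ratio of Krt20 to Krt19 was 0.497 and 0.412 in WT against 0.260 and 0.193 in Esr2-KO. An exact two-sided permutation test of 2 against 2 libraries cannot give a p below 0.333, so these shares are described only.

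Of the simple keratins 0 passed with edgeR and limma-voom, Krt20 alone passed with DESeq2, and Krt20 alone had an unadjusted edgeR p under 0.05. Krt20 stood at 1054 and 764 CPM in WT against 645 and 511 CPM in the knockouts, lower in both Esr2-KO libraries than in either WT library. Its log2 fold change was -0.65 ± 0.23 (adjusted p = 0.183), while DESeq2 gave an adjusted p of 0.00868. Krt19 stood at 1733 and 1516 CPM in WT against 2029 and 2164 CPM in the knockouts (0.37 ± 0.21, adjusted p = 0.385), again with no overlap. With DESeq2 it fell just short (adjusted p = 0.05). Krt8 had 3701 and 3322 CPM in WT against 3971 and 4037 CPM in the knockouts (0.19 ± 0.23, adjusted p = 0.685). Both knockouts lay above both WT libraries, but the gap was smaller than that between the WT libraries. Krt18, the usual type I partner of Krt8, had 563 and 457 CPM against 482 and 448 CPM (-0.13 ± 0.17, adjusted p = 0.705), with overlap, and turned to 0.02 without WT 1. Krt7, a type II chain of ducts and glands, had 130 and 126 CPM against 123 and 128 CPM (-0.03 ± 0.11, adjusted p = 0.913). The groups overlapped. Krt23, a minor type I chain, had 7.71 and 9.40 CPM against 6.90 and 7.36 CPM (-0.26 ± 0.22, adjusted p = 0.538), lower in both knockouts by less than the gap between the WT libraries.

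Genes of surface colonocytes were set beside Krt20, and they did not share one direction. Of 9 tested, 3 fell and 0 rose, where 1.39% of all genes tested fell and 1.30% rose. Of the 9, 5 had positive log2 fold changes (list median 0.29). Those that fell were Cyp2c55, a cytochrome P450 (2086 and 2260 CPM in WT, 336 CPM in each knockout, -2.69 ± 0.21, edgeR adjusted p = 0.0125), Car1, a carbonic anhydrase (3002 and 6491 CPM, then 1112 and 1082 CPM, -2.11 ± 0.39, edgeR adjusted p = 0.0469), and Guca2b, the hormone uroguanylin (22.4 and 21.2 CPM, then 10.7 and 7.97 CPM, -1.22 ± 0.20, edgeR adjusted p = 0.0349). Car4, another carbonic anhydrase, picked after its values were seen, had 546 and 685 CPM in WT but 1156 and 1348 CPM in the knockouts (1.02 ± 0.21, edgeR adjusted p = 0.0596). The Car1 call ended with the 1 CPM filter (0.0518), a block on replicate number (0.0742) and without Esr2-KO 2 (0.056), and that of Guca2b without WT 1 (0.141) or WT 2 (0.0881). Of 8 crypt and proliferation genes 1 rose and 0 fell (median -0.54). That 1, Smoc2, lost its call in 7 alternatives. The proliferation genes Mki67, Top2a, Ccnb1 and Cdk1 were lower in the knockouts without overlap, at log2 fold changes of -1.33 to -1.07 and edgeR adjusted p of 0.0597 to 0.0825. Of 8 goblet cell genes 0 passed (2 at an unadjusted p under 0.05, Muc2 and Agr2, both negative, median -0.55). The part of cell make-up in the Krt20 values was not tested.

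Stratified keratins were rare. The 18 of them summed to 704 and 587 counts in WT, and to 432 and 307 in the knockouts, out of 192813 to 262027 keratin counts. Several defining genes of stratified squamous epithelium were at or near 0. Trp63 was counted 7 times in WT 1, 1 time in WT 2 and 0 times in either knockout. Krt5, the type II keratin of basal cells, was counted 3, 8, 0 and 2 times in the order WT 1, WT 2, Esr2-KO 1 and Esr2-KO 2. Krt4, the keratin of oesophageal and other mucosal squamous cells, was counted 0, 0, 0 and 1 times in that order, and its partner Krt13 had 4, 1, 9 and 1. Ivl had 1 count in all, Lor, the main protein of the skin envelope, had 4, 4, 1 and 0, and Sprr3 and Flg had 0 in every library. These libraries thus held few or no counts of those markers in either genotype. Other genes of squamous cells were counted in every library, with Krt14 at 56 to 59 counts. Of a list of 29 cornified envelope genes 19 were too low to test, but Tgm3 ran from 145 to 2106 CPM and Evpl from 22.9 to 75.3 CPM. The name squamous stands for gene families here, and a squamous source of the RNA was not tested.

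Of the 18 stratified keratins 8 had enough counts to be tested and 0 passed with edgeR or limma-voom, while 2, Krt17 and Krt12, had an unadjusted edgeR p under 0.05. Krt17 alone passed with DESeq2, run without the low-count filter used for edgeR, and Krt12 was given no adjusted p there. Krt17, a keratin of hair follicles and of injured epithelium, was the most counted. It stood at 9.53 and 5.52 CPM in WT against 2.57 and 2.58 CPM in the knockouts. The groups did not overlap, and WT 1 was the highest library. The log2 fold change was -1.55 ± 0.33 (adjusted p = 0.0642). It passed in edgeR with library totals (0.0236), without the low-count filter (0.00216) and without Esr2-KO 1 (0.0409). It shared 3.99% of its windows with other genes, mainly Krt14. Krt80 had 4.52 and 4.28 CPM against 3.30 and 2.28 CPM (-0.65 ± 0.31, adjusted p = 0.293). Krt14, the type I partner of Krt5, had 1.54 and 1.67 CPM against 1.67 and 2.24 CPM (0.28 ± 0.38, adjusted p = 0.721), and 14.4% of its windows occur in Krt16 or Krt17. Krt10, the suprabasal keratin of skin, had 2.175 and 2.415 CPM against 1.96 and 2.05 CPM (-0.20 ± 0.34, adjusted p = 0.781). Krt12, the keratin of corneal epithelium, was counted 12 and 20 times in WT, then 2 and 4 times (-2.12 ± 0.85, adjusted p = 0.226). The groups did not overlap in 6 of the 8. Krt10, Krt12, Krt17 and Krt80 (50%) were lower in the knockouts and Krt15 and Krt78 (25%) higher. Of all genes tested 27.7% were lower and 27.0% higher without overlap. Krt15 rested on 19 and 18 counts in WT against 18 in each knockout, and Krt78 on 7 and 30 against 54 and 30.

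Among 26 keratins of hair, inner root sheath and other kinds, 14 had no count in any library and 5 were tested, with 0 past the threshold in edgeR or limma-voom (Krt222 and Krt83 at an unadjusted edgeR p under 0.05). Krt222, a keratin-like gene with a truncated rod that is found in neurons as well, was at 1.845 and 3.65 CPM in WT against 0.789 and 0.493 CPM in the knockouts (-2.08 ± 0.51, adjusted p = 0.0883). It passed with DESeq2 (0.0142) and, in edgeR, with library totals (0.0432), without the low-count filter (0.00669) and without Esr2-KO 1 (0.0412). Krt87, the most counted of them, was at 2.67 and 1.90 CPM against 2.16 and 3.49 CPM (0.30 ± 0.39, adjusted p = 0.705), and turned to -0.07 without Esr2-KO 2. Krt83, a hair keratin, rested on 3, 7, 19 and 21 counts (2.22 ± 0.74, adjusted p = 0.162) and shared 23.2% of its windows with Krt86, Krt81 and Krt87. Krt84 had 1.02 and 1.95 CPM against 0.877 and 0.455 CPM, and Krt36 had 0.523 and 0.374 CPM against 0.702 and 0.872 CPM, with adjusted p of 0.316 and 0.461.

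**Figure D3:**
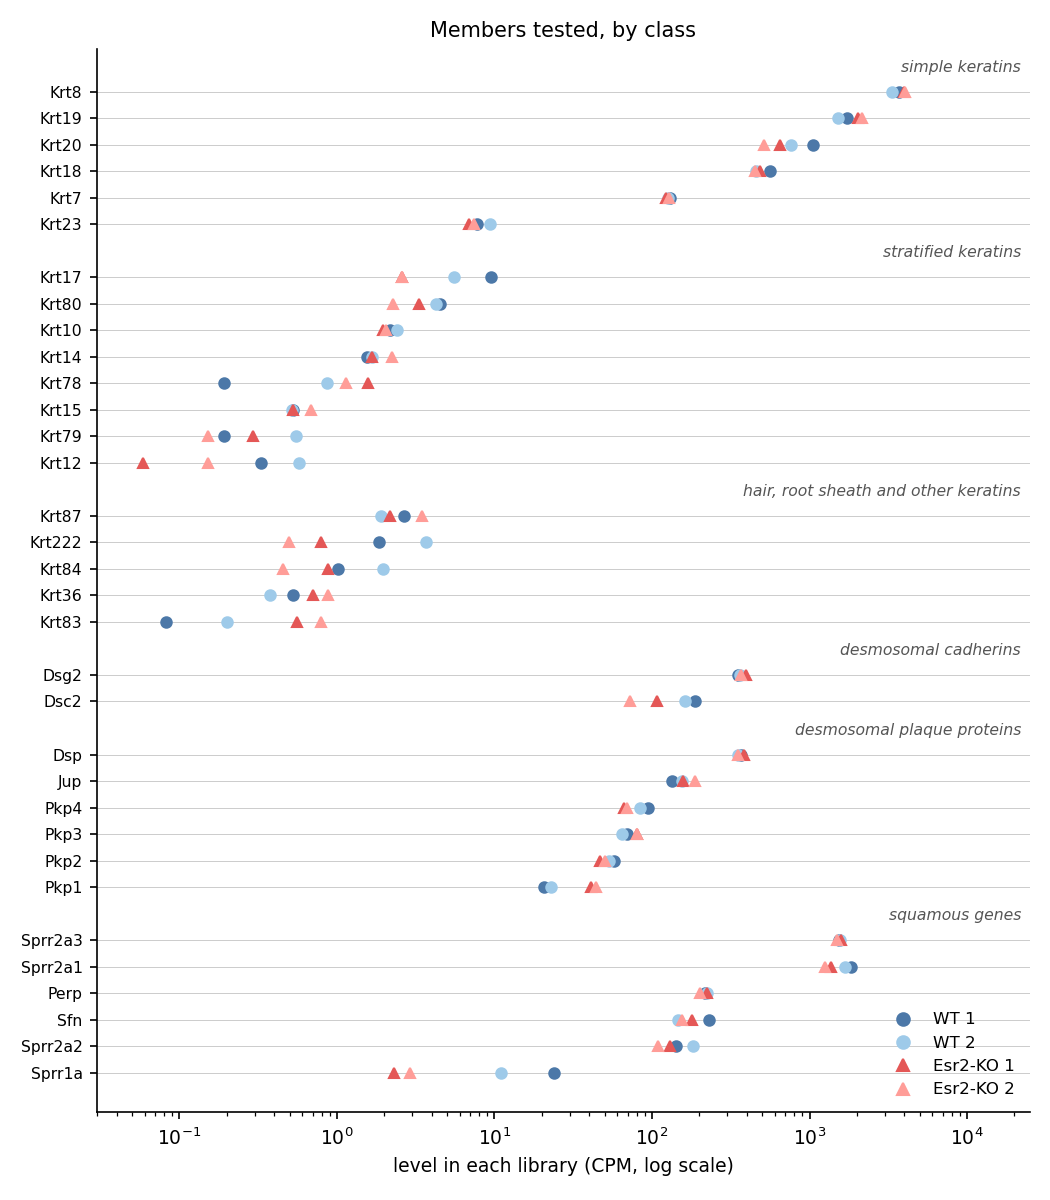
Level of each of the 33 members tested in each library (CPM, log axis), by class; circles are WT and triangles Esr2-KO libraries. Simple keratins other than Krt23 lie above 100 CPM, while every tested keratin outside that class lies below 10 CPM.

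Desmosomal cadherin RNA was mostly that of simple epithelia. Dsg2 and Dsc2, the cadherin pair of simple epithelia, had 1902 to 13546 counts, whereas the skin cadherins had few or none. Dsg3 had 1 count in WT 2 and 1 in Esr2-KO 1, Dsc1 and Dsg1b had 0 in every library, and Dsc3 had 7, 5, 6 and 0. Dsg1a had 4 counts, all in WT 2, and Dsg1c had 6, all in WT 1. Dsg4, the desmoglein of hair, was counted 12 and 7 times in WT but 0 and 2 times in the knockouts. These skin cadherins lie with Dsg2 and Dsc2 in a cluster on chromosome 18.

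The log2 fold changes of the cadherin pair had opposite signs, and neither passed the test. Dsc2 stood at 187 and 163 CPM in WT against 108 and 72.2 CPM in the knockouts, so both Esr2-KO libraries were lower, Esr2-KO 2 the most. Its log2 fold change of -0.96 ± 0.20 missed the threshold with edgeR (adjusted p = 0.0612) and passed it with limma-voom (0.0496), DESeq2 (7.86e-05), a fit blocked on replicate number (0.0358), no low-count filter (0.000165) and Esr2-KO 1 left out (0.00176). Dsg2 stood at 349 and 361 CPM in WT against 396 and 368 CPM in the knockouts (0.10 ± 0.14, adjusted p = 0.725). It turned to -0.06 when libraries were scaled by their totals alone. Whether the changes of these genes differ from each other was not tested.

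Pkp1 rose in Esr2-KO. This plakophilin, best known from the desmosomes of stratified epithelium, stood at 20.6 and 22.9 CPM in WT against 40.9 and 44.1 CPM in the knockouts. The libraries of each group lay close together and the groups were far apart. Its log2 fold change was 0.97 ± 0.13, a 1.95-fold difference (edgeR adjusted p = 0.0260). Pkp1 lies on chromosome 1 from 135871395 to 135919207 (GRCm38, minus strand), shared 0% of its windows and had no exon overlap with another gene. The call ended without WT 1 (adjusted p = 0.121), without WT 2 (0.0584) and with library totals in place of TMM (0.0503), while the log2 fold change stayed between 0.80 and 1.06 over the 14 alternatives.

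The other plaque genes did not pass. Pkp3, the plakophilin found in most desmosomes, had 69.4 and 64.8 CPM in WT against 80.7 CPM in each Esr2-KO library (0.27 ± 0.11, adjusted p = 0.220). Pkp2, the plakophilin of simple epithelia and heart, had 57.7 and 53.6 CPM against 46.8 and 50.5 CPM (-0.19 ± 0.12, adjusted p = 0.393). Pkp4, which also sits at adherens junctions, had 94.9 and 83.6 CPM against 66.5 and 69.6 CPM (-0.39 ± 0.12, adjusted p = 0.129). In these 3 genes the groups did not overlap, with Pkp3 above and Pkp2 and Pkp4 below WT. Jup had 133 and 154 CPM against 157 and 186 CPM (0.26 ± 0.14, adjusted p = 0.360). Dsp, the most abundant plaque transcript by count, had 368 and 351 CPM against 385 and 354 CPM (0.04 ± 0.14, adjusted p = 0.905). Its direction turned with library totals (-0.12) and without Esr2-KO 1 (-0.02), and the genotypes overlapped. Summed over all 15 desmosome genes, RNA stood at 1282 and 1254 CPM in WT against 1281 and 1225 CPM in the knockouts, a difference smaller than that between libraries of a group.

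**Figure D4:**
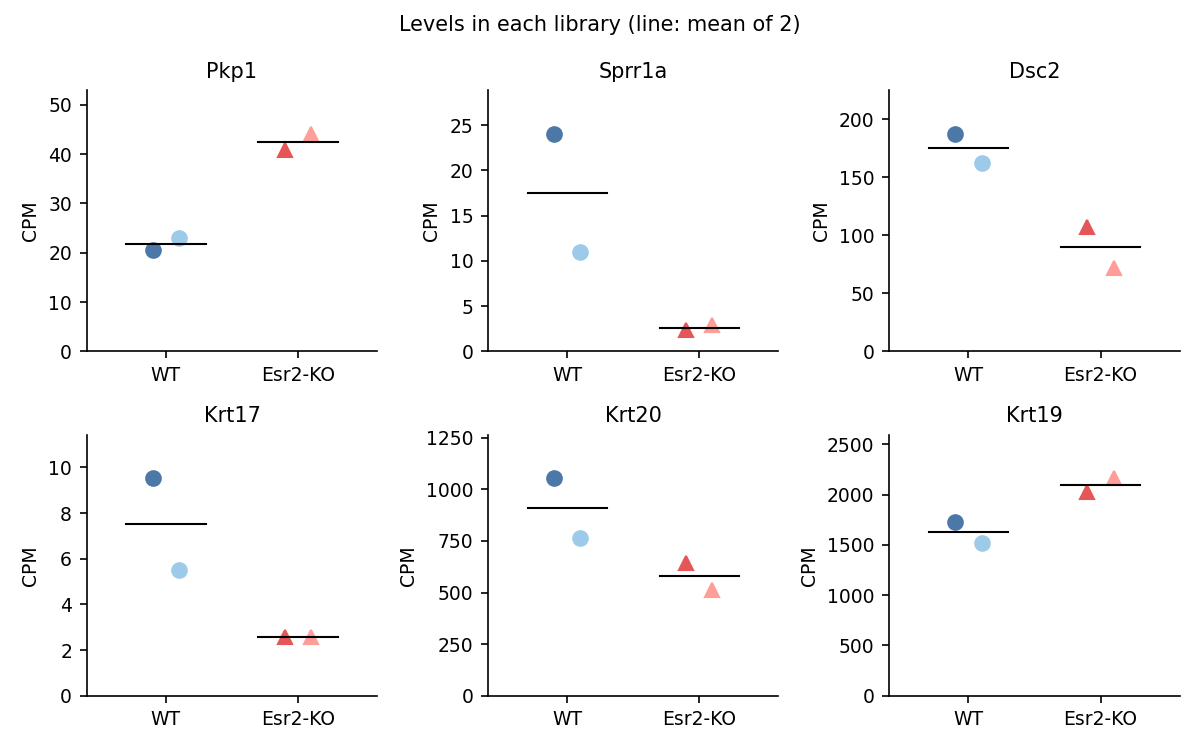
Level (CPM, linear axis from 0) of Pkp1, Sprr1a, Dsc2, Krt17, Krt20 and Krt19 in each library; the line is the mean of 2. The groups do not overlap in any of the 6, but edgeR's test passed Pkp1 and Sprr1a only.

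Sprr1a fell in Esr2-KO. This small proline-rich protein is a cross-linked part of the cornified envelope and is also induced in stressed or injured cells of other kinds. Its level was 24.01 and 10.98 CPM in WT (872 and 382 counts) and 2.31 and 2.92 CPM in the knockouts (79 and 77 counts). Both Esr2-KO libraries were far below either WT library, although WT 1 was also well above WT 2. The log2 fold change was -2.75 ± 0.40, a 6.70-fold difference (edgeR adjusted p = 0.0282). The call ended without WT 1 (adjusted p = 0.0603) and with limma-voom (0.0569), and the log2 fold change ran from -3.18 to -2.07 over the 14 alternatives. Sprr1a lies on chromosome 3 from 92483952 to 92485895 (GRCm38, minus strand), within the same cluster as the Sprr2a copies printed above.

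The Sprr2a copies were among the most abundant transcripts of the whole set. Sprr2a1 had 1831 and 1667 CPM in WT against 1364 and 1250 CPM in the knockouts (-0.42 ± 0.21, adjusted p = 0.305). It passed with DESeq2 (adjusted p = 0.017). Sprr2a2 had 142 and 182 CPM against 131 and 109 CPM (-0.43 ± 0.17, adjusted p = 0.207). Sprr2a3 had 1532 and 1567 CPM against 1574 and 1497 CPM (-0.01 ± 0.20, adjusted p = 0.978). The Sprr2a2 row held far fewer counts than the Sprr2a1 row in every library although their coding sequences are the same, and their annotated exons overlap. Summed, the 3 rows gave 3505 and 3416 CPM in WT against 3069 and 2856 CPM in the knockouts, without overlap (-0.22 ± 0.22, adjusted p = 0.614 in a fit with the rows merged). Of the other 13 Sprr genes, 11 had no count and Sprr2b and Sprr2h had 17 and 1 counts in all.

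Sfn, the 14-3-3 protein σ of epithelial cells, had 230 and 145 CPM in WT against 178 and 155 CPM in the knockouts (-0.17 ± 0.22, adjusted p = 0.704), and 15% of its windows occur elsewhere, mainly in Gm7850. Perp, a p53 and p63 target that sits in desmosomes, had 216 and 224 CPM against 225 and 202 CPM (-0.04 ± 0.13, adjusted p = 0.878). In both genes the groups overlapped. The direction of Sfn turned without WT 1 (0.20), and that of Perp without WT 2 (0.002) and without Esr2-KO 2 (0.04).

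Genes that work beside keratins and desmosomes were taken from fixed lists. The lists are small, and for comparison 1.30% of all genes tested rose and 1.39% fell. Among 6 genes that link or position keratin filaments, Fam83h, a scaffold that organises keratin filaments, rose (59.4 and 67.8 CPM in WT, 107 and 103 CPM in Esr2-KO, 0.72 ± 0.12, edgeR adjusted p = 0.0349) and 0 fell, with a list median of 0.38. Eppk1, the plectin relative epiplakin, had 17.95 and 18.9 CPM against 28.65 and 29.55 CPM (adjusted p = 0.0564). Of 8 tested genes of hemidesmosomes and their laminin, which anchor keratin to the basement membrane, 2 rose and 0 fell (median 0.30). Among them was Itgb4, the β4 integrin (65.8 and 72.1 CPM against 102 and 122 CPM, 0.70 ± 0.13, edgeR adjusted p = 0.0489). Dst, the plakin dystonin, went the other way without passing, from 286 and 220 CPM to 167.5 and 130 CPM (-0.77 ± 0.19, adjusted p = 0.0860). The call of Itgb4 ended when any of WT 1, WT 2 and Esr2-KO 2 was left out, and that of Fam83h without WT 1 (0.155) or WT 2 (0.0565). Both also ended with library totals in place of TMM, that of Itgb4 ended with upper-quartile scaling (0.0544), and that of Fam83h fell just short with a block on replicate number.

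Of 29 genes of the cornified envelope and terminal squamous differentiation 10 were tested, 1 rose and 0 fell (median 0.40). Evpl, envoplakin, which ties desmosomes and keratin to the envelope, stood at 22.9 and 31.0 CPM in WT against 59.5 and 75.3 CPM in the knockouts (1.32 ± 0.19, edgeR adjusted p = 0.0270). The groups lay well apart, and the call ended without WT 1 (0.0779). Its partner Ppl had 8.10 and 7.42 CPM against 9.62 and 12.3 CPM (0.50 ± 0.22, adjusted p = 0.258). Of 12 tested transcription factors of squamous and other epithelia 1 rose and 0 fell (median 0.45). Grhl3, a grainyhead factor of barrier epithelia, was counted 2 and 5 times in WT but 81 and 44 times in the knockouts (4.305 ± 0.64, edgeR adjusted p = 0.0297), a call that ended without WT 1 (0.120) or WT 2 (0.0525). General epithelial genes stayed near 0 as a list (median 0.04 over 9, with 0 past the threshold and 0 at an unadjusted p under 0.05). Epcam, a surface protein of gut and many other epithelial cells, had 1367 and 1376 CPM in WT against 1445 and 1328 CPM in the knockouts (0.02 ± 0.20). Cdh1, E-cadherin, had 597 and 602 CPM against 746 and 859 CPM (0.42 ± 0.18, adjusted p = 0.246), and passed with DESeq2 (adjusted p = 0.019). Ctnnb1, β-catenin, had 835 and 754 CPM against 685 and 615 CPM (-0.29 ± 0.18, adjusted p = 0.412).

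Markers of other tissues that carry keratins were set beside these values. The pancreatic duct, which uses Krt7 and Krt19, was represented by 6 genes that summed to 212, 218, 221 and 240 CPM, with Onecut1 at 0, 1, 0 and 6 counts, in the library order above. Of the 5 tested 0 passed (4 at an unadjusted p under 0.05). Spp1 was at 25.6 CPM in Esr2-KO 2 and at 0.826 to 1.40 CPM in the other libraries. With the 27 acinar genes left out, the call counts among the members stayed at 1 higher and 1 lower, and the same held without Esr2-KO 2. Mesothelium, which uses Krt7, Krt8, Krt18 and Krt19, was represented by 6 genes that summed to 43.5 and 32.5 CPM in WT against 21.0 and 31.9 CPM in the knockouts, and 0 of 6 passed (1, Upk1b, at an unadjusted p under 0.05). Of 5 urothelial genes Upk1a and Upk1b were tested and 0 passed (Upk1b again at an unadjusted p under 0.05), with sums of 16.2 and 20.9 CPM against 15.3 and 12.7 CPM. The part of these tissues in the keratin values was not tested.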

How the data were processed

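The data are total RNA libraries of mouse colon, 2 per genotype. Triplicates are mentioned in the submitted design text, whereas only these 4 libraries were analysed here. Per the labels' protocols, they were Trizol extracts, ribosomal RNA was removed, and a directional library kit was used. The deposited counts per gene symbol are whole numbers without normalization, and HISAT2 and mm10 are named, per the submitters' processing notes. For the counting program, annotation and strand use, nothing is given in the sources used here. Overlapping, antisense and near-identical genes may therefore share reads. All 86 members matched 1 gene of GENCODE M21 (GRCm38).

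Libraries of a group differed by more than sampling noise (chi-square per degree of freedom 39.7 in WT and 478 in Esr2-KO). Each value is a sum over genes in which high counts weigh most, and the acinar genes of Esr2-KO 2 are part of the second. They do not measure how many genes differed. Low genes were removed with filterByExpr (minimum count 10, minimum total 15), counts were TMM scaled and all 17169 genes were fitted with edgeR 4.0.16 in R 4.3.3 by genotype alone (quasi-likelihood test, two-sided, 2 residual degrees of freedom). Standard errors come from the coefficient and its F statistic. The p-values measure the spread between these libraries, which may be technical. The procedure was also run on simulated counts, with the same dispersion for every gene and no library rich in acinar RNA, unlike these data. Even there most genes given the smaller size of change were not called, so a gene that did not pass may still differ.

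Members and gene lists were chosen with earlier results of these data known. The members named were those past the threshold, those with most counts in each class and those with the smallest p; of other lists, genes past the threshold or else up to 2 with the smallest p. Some genes that this rule names in the other lists are not reported here. Trp63, Krt4, Krt5, Krt13, the rare cadherins, Sprr2b, Sprr2h, Lor, Flg, Ppl, Eppk1, Dst, Car4, Epcam and Onecut1 were added to show defining or contrasting members. Alternatives were other scalings and filters, DESeq2 1.42.0, limma-voom (limma 3.58.1), a block on replicate number, omission of each library, and omission of the acinar genes. Summing the Sprr2a rows was chosen after seeing the data.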

Additional observations from a re-analysis of the deposited data

How the results depend on the processing

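The count of all genes past the threshold was 462 and that of members 2. It became 695 for all genes with library totals in place of TMM, 1916 without a low-count filter and 1693 with DESeq2, both fitted on 25515 genes. DESeq2's own filter left the lowest of these, such as Krt12, without an adjusted p. Members past the threshold then numbered 3 with library totals, all lower (Krt17, Krt222 and Sprr1a), 5 without the filter and 7 with DESeq2. Leaving out a library in turn gave 165 (without WT 1) to 1804 (without Esr2-KO 1) genes and 0 to 5 members. In those fits the lone library is assumed to vary like the other group. With the replicate number as a block 490 genes and 3 members passed, the third being Dsc2. The numbers do not mark a known pairing, and deviations of same-numbered libraries correlated at -0.0641 across genes. Signs turned only for small differences that had not passed. With library totals the log2 fold change was -0.055 for Dsg2 and -0.119 for Dsp. Leaving out a library in turn gave -0.260 to 0.023 for Krt18 and -0.450 to 0.197 for Sfn (positive without WT 1), -0.055 to 0.008 for Krt7 (positive without Esr2-KO 1), -0.018 to 0.106 for Dsp (negative without Esr2-KO 1) and -0.072 to 0.614 for Krt87 (negative without Esr2-KO 2). It gave -0.046 to 0.029 for Sprr2a3 and -0.120 to 0.037 for Perp, positive without WT 2 or Esr2-KO 2. The cause was not tested. Depth limits the rarest genes tested, such as Krt12 and Krt83, whose values rest on at most 21 counts a library.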

Other observations

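A pair of further genes of the cornified envelope list, singled out after their values were seen, spanned the widest range of it without passing the test. Tgm3, a transglutaminase that cross-links envelope proteins, stood at 145 and 629 CPM in WT against 1531 and 2106 CPM in the knockouts (2.23 ± 0.63, edgeR adjusted p = 0.116). Casp14, a caspase of terminal differentiation in skin, was counted 1 and 223 times in WT but 1019 and 748 times in the knockouts (3.18 ± 1.21, edgeR adjusted p = 0.206). In both genes WT 1 was the lowest library by far, as it was for Hoxd13, a gene of distal position, with 1.29 and 19.2 CPM in WT against 121 and 155 CPM in the knockouts. The part of position in the Tgm3 and Casp14 values was not tested.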
